A study of Mus musculus with 29 samples.

Results

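Lipid uptake and lipid droplet genes are described here in mouse bladder, as 10 genes named by symbol: Cd36, Lpl and Angptl4 for uptake, Plin1, Plin2, Plin4, Plin5, Cidea and Cidec for the droplet coat, and Dgat2 for synthesis. Their rows were looked up by symbol, and all 10 were found among the 35199 gene rows of each table. The study asked what an activated form of Pparg does in basal cells of the urothelium, the lining of the bladder, and in tumors made by a carcinogen. RNA-seq was done on basal cells sorted 4 days after tamoxifen and on tumor regions cut out by laser. Of the 29 libraries deposited, the 21 of 6 groups are compared here.

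The sorted cells came from 4 control and 5 mutant libraries. In mutants a Krt5CreERT2 driver, active in basal cells, lets a VP16;Pparg cDNA be expressed from a CAG promoter in the Rosa26 locus after tamoxifen, together with EGFP. The labels list the controls as wild type and the mutants as K5VP16;Pparg+/-, both as untreated. The paper's methods give the sorted cells as GFP-positive cells of adult K5;mTmG and K5VP16;Pparg;mTmG mice, both induced with tamoxifen. Tumors came from mice given BBN, a bladder carcinogen, at 0.05% in the water for 5 months, 4 months after induction by the sample titles. Of these groups 3 libraries are basal tumors of controls, listed as wild type in the labels and as VP16;Pparg fl/fl or K5;mTmG in the paper. The other tumor groups are K5VP16;Pparg+/- and hold 3 libraries each, namely luminal tumors, the luminal domains at the top of mixed lesions and the basal-like domains at their bottom. Genotype and tumor subtype cannot be told apart between basal and luminal tumors, because each subtype came from 1 genotype. Strain is not given in the labels, reads of the transgene are not separated from those of endogenous Pparg, and the labels do not tie captured regions to mice. Where regions within a group share a mouse, p-values of the tumor comparisons may be too small. Where luminal and basal-like domains share a mouse, the unpaired fit between them may give p-values that are too large. In all comparisons p-values measure spread between libraries.

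Libraries are named by letters in the column order of the tables: controls A to D, mutants A to E, basal tumors A to C, luminal tumors A to C, luminal domains A to C and basal-like domains A to C. A library keeps its letter in every table, and equal letters in different groups are not taken as pairs. Values are normalized counts, which the authors obtained by dividing estimated counts by factors that differ from gene to gene, so levels are compared between libraries and not between genes. Where the most abundant gene of a marker list is named, it is the one with the highest mean normalized count in the table, which says what dominates the sum and does not rank transcripts. The paper gives a depth that was aimed at, and the depth reached by each library is unknown. Normalized counts summed to between 36520193 and 41435665 per library in the table of sorted cells, between 41697178 and 53252995 in that of tumors, between 43223602 and 52984337 in that of luminal domains and basal tumors, and between 42985095 and 53904714 in that of the domains. Differences are given as log2 fold changes with their standard error (SE), taken from log2(normalized count + 1), which makes changes of low genes look smaller. A gene is called when its limma p, adjusted by Benjamini-Hochberg over all genes tested, is under 0.05.

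Cells take in fatty acids that lipoprotein lipase, made from Lpl, frees from circulating triglyceride, and Cd36 carries them across the membrane, while Angptl4 inhibits the lipase. Dgat2 joins the last fatty acid to make triglyceride, which is stored in droplets whose surface is coated by perilipins and proteins of the Cide family. Many of these genes are bound by Pparg with its partner, the retinoid X receptor, in fat cells, and in the bladder Pparg is known for its part in the differentiation of luminal urothelial cells.

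At 4 days, markers of basal urothelium were present in the sorted cells, their 6 genes summing to between 141596 and 183762 normalized counts in controls and between 112179 and 135368 in mutants, with Krt5 the most abundant. Of these 6 genes 3 were higher and 3 lower in mutants, with Col17a1 called lower, while all 8 luminal markers were higher by log2 fold change (Upk3a by only 0.03), with Krt20 called and Upk1a the most abundant. The 8 luminal markers summed to between 230541 and 425878 normalized counts in controls and between 291665 and 635351 in mutants. Libraries of both groups therefore held RNA of both marker lists. Fat cell markers were low. The 6 markers that are not themselves members (Adipoq, Lep, Retn, Cfd, Adrb3 and Adig) summed to 161, 196, 193 and 226 normalized counts in controls A to D and to 156, 168, 153, 379 and 419 in mutants A to E. Adrb3 was the most abundant of them, Adipoq was listed at 0 in every control and Lep in every mutant. Of the 10 members 9 reached 10 normalized counts in 4 or more libraries, the filter on low values, and Cidea did not. In the mutants 7 were higher and 2 lower, and 3 were called, all higher, where 2.85% of all 16413 genes tested were called (467 genes, 290 higher and 177 lower). Which direction holds more genes depends on the scaling, as quantile scaling gave 270 higher and 287 lower. The members' median log2 fold change was 0.75, against 0.00 over all genes tested. At an unadjusted limma p under 0.05 there were 4 members and 3418 genes in all.

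Among the uptake genes, Angptl4, whose product is secreted and inhibits lipoprotein lipase, stood at 1051, 1184, 1347 and 1049 normalized counts in controls A to D and at 3764, 2041, 6558, 5441 and 4191 in mutants A to E. Every mutant lay above every control, mutant B the lowest of them and mutant C the highest. The means were 1158 ± 141 (SD, n = 4) and 4399 ± 1714 (SD, n = 5) normalized counts, and the log2 fold change was 1.83 (SE 0.29, limma adjusted p = 0.0140). Lpl, the lipase itself, stood at 243, 235, 351 and 375 normalized counts in controls and at 233, 230.4, 456, 984 and 1252 in mutants. Mutants D and E were well above all controls, mutants A and B were below all of them, and the log2 fold change of 0.75 (SE 0.51, limma adjusted p = 0.441) was within this spread. Cd36, the fatty acid carrier, stood at 66.6, 12.4, 21.5 and 7.36 normalized counts in controls and at 4.40, 2.30, 145, 55.4 and 135 in mutants. The mutants fell on both sides of the controls, with A and B lowest and C and E highest. Its log2 fold change of 0.50 (SE 1.22, limma adjusted p = 0.846) became -0.08 without mutant C and -0.05 without mutant E.

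In the droplet coat, Plin2, the perilipin found on droplets of most cell types, stood at 12026, 12141, 11318 and 11066 normalized counts in controls A to D and at 23264, 20075, 18868, 22870.2 and 22848 in mutants A to E. The groups were far apart, the lowest mutant (C) lying above the highest control (B), and the spread within each was small. With means of 11638 ± 527 (SD, n = 4) and 21585 ± 1983 (SD, n = 5) normalized counts, the log2 fold change was 0.89 (SE 0.09, limma adjusted p = 0.00171). Plin2 overlaps the predicted gene Gm12551 in the annotation, which held at most 31.4 normalized counts in these libraries. Cidec, a droplet protein that acts in droplet growth, stood at 1.19, 0, 0.57 and 4.96 normalized counts in controls and at 44.9, 1.88, 20.2, 32.2 and 68.6 in mutants. Mutants A, C, D and E lay above all controls, and mutant B lay among them. Its log2 fold change of 3.44 (SE 0.90) had a limma adjusted p of 0.0714, above the threshold. Without mutant B it was called, at 4.19 (limma adjusted p = 0.0119). Cidec passed the filter on low values only through mutants A, C, D and E, of the group where it was high. Without any 1 of these it was not tested, which leaves 5 fits without one library. This call was therefore not independent of the filter. Cidec shares bases with the predicted gene Gm52871 in the annotation, so its low values are reported as uncertain.

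Cidea, another droplet protein of that family, was listed at 0 in 8 of the 9 libraries and at 3.57 normalized counts in mutant A. It overlaps the gene B430212C06Rik in the annotation, so this value is uncertain too. Plin1, the perilipin typical of fat cells, was low in both groups, between 15.4 and 44.6 normalized counts in controls and between 17.6 and 35.0 in mutants. The groups overlapped throughout, with a log2 fold change of -0.29 (SE 0.40, limma adjusted p = 0.726). Plin4 stood between 517 and 909 normalized counts in controls and between 343 and 925 in mutants, mutants A and B being the lowest and E the highest of all 9. Its log2 fold change of -0.36 (SE 0.29, limma adjusted p = 0.518) was within the spread. Plin4 overlaps Hdgfl2, which stood between 3242 and 4578 normalized counts, and reads in the overlap may belong to either gene. Plin5, a perilipin of cells that burn fatty acids, ranged from 290.1 to 389 normalized counts in controls and from 280.1 to 519 in mutants, a log2 fold change of 0.18 (SE 0.22, limma adjusted p = 0.684). As for Lpl, mutants D and E were the highest of the 9 libraries and mutant B the lowest.

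For synthesis, Dgat2, which makes triglyceride from diglyceride, stood at 7886, 8181, 8508 and 7212 normalized counts in controls A to D and at 13361, 10914, 13201, 14309 and 15926 in mutants A to E. All mutants lay above all controls, and mutant B was again the lowest mutant. The means were 7947 ± 552 (SD, n = 4) and 13542 ± 1825 (SD, n = 5) normalized counts, and the log2 fold change was 0.76 (SE 0.11, limma adjusted p = 0.0112). Dgat1, the other enzyme of this step and no member, ranged from 1635 to 1673 normalized counts in controls and from 1559 to 2225 in mutants. Its groups overlapped, with a log2 fold change of 0.16 (SE 0.12, limma adjusted p = 0.491).

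**Figure D1:**
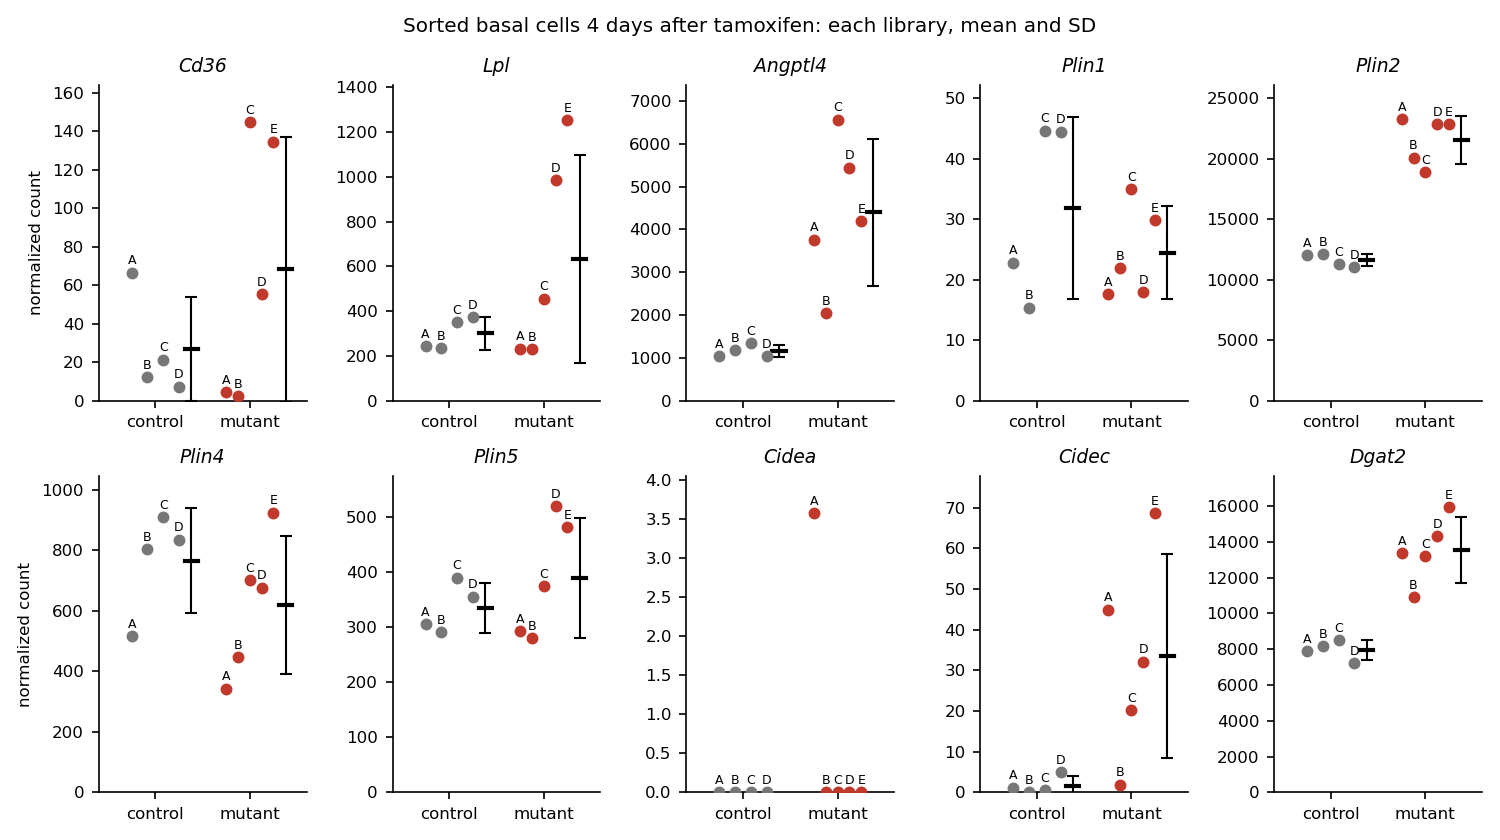
Normalized counts (vertical axes, linear from 0) of the 10 genes in each library of sorted cells, 4 controls and 5 mutants lettered as in the text, with the mean and SD beside the points where most of the group is above 0. Angptl4, Plin2 and Dgat2 have every mutant above every control, and the other genes overlap.

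The 3 calls remained in each of the 9 fits without one library, where the log2 fold change of Angptl4 lay between 1.66 and 2.08, that of Plin2 between 0.86 and 0.93 and that of Dgat2 between 0.70 and 0.84. In the authors' smaller table, which holds 3 of these controls and 3 of these mutants, Plin2 alone was called (0.84), and Angptl4 (1.69, limma adjusted p = 0.106) and Dgat2 (0.73, limma adjusted p = 0.0930) were not. Y-linked genes divided the libraries nearly as the genotype did. The mean of log2(normalized count + 1) over 4 Y-linked genes was 5.59 in control A, from 11.05 to 11.11 in controls B to D and from 5.16 to 5.91 in mutants. Between control A and the 5 mutants alone, which are alike in this score, the log2 fold changes were as large, at 1.96 for Angptl4, 0.84 for Plin2 and 0.77 for Dgat2. None was called there, with 1 control library whose spread was taken from the other libraries (limma adjusted p = 0.559, 0.464 and 0.562), and 2 genes of all tested were called. With the Y-linked level, high or low, as a covariate over all 9 libraries the estimates are the same, since this fit also sets control A against the mutants, and the 3 genes were not called with the spread of all libraries (limma adjusted p = 0.304, 0.164 and 0.315). The log2 fold changes of Cd36, Plin1 and Plin4 changed sign there, to -1.23, 0.04 and 0.17.

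Markers of cells outside the urothelium follow, list by list. All 6 fibroblast markers were higher in mutants, and Lum alone was called. They summed to 11651, 25063, 42201 and 84707 normalized counts in controls A to D and to 84293, 30652, 217371, 129146 and 66750 in mutants A to E, Dcn being the most abundant. All 6 smooth muscle markers were higher as well with 0 called by limma and 4 at an unadjusted p under 0.05, with sums of 192, 267, 174 and 1042 in controls and of 2719, 410, 1359, 645 and 843 in mutants and Acta2 the most abundant. Of the endothelial markers 4 of 8 were tested and 3 were higher. Their sums were 705, 1099, 1363 and 2713 in controls and 2172, 922, 4257, 3782 and 1634 in mutants, mostly of Esam, while Cdh5 and Gpihbp1 were listed at 0 in every control. Macrophage markers, 4 of 7 tested being higher, summed to between 3024 and 4561 in controls and between 2797 and 5895 in mutants, with Cd14 most abundant. T cell markers, 1 of 5 tested being higher, summed to between 142 and 201 in controls and between 114 and 163 in mutants, with Cd3d most abundant. In bulk libraries more cells of a type and more RNA per cell cannot be told apart, and the part of these cells in the members' values was not tested.

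Promoters of the members were read from a RefSeq table for GRCm38.p6 that gives 250 bases before and 50 after each gene's start, and 6 of the 10 members were matched, with 8 promoters. Lpl, Angptl4, Cidea and Dgat2 are not in it. The search was for AGGTCA, the half-site of nuclear receptors, on both strands, which 16.3% of all 32851 promoters hold, and for AGGTCANAGGTCA, the direct repeat to which Pparg and the retinoid X receptor bind as a pair, which 0.0396% hold. The half-site was in 4 of the 8 promoters, 1 of Plin2, 1 of Cd36 and 2 of Plin5. No member's promoter in the table held the repeat, and the half-site was absent from those of Plin1, Plin4 and Cidec. The repeat was sought as exact letters that few promoters hold, so its absence from these 8 says little. Inexact sites and sites outside these bases were not searched. The promoters of Plin2, which was called at 4 days, and Cd36, which was not, are shown because both hold the half-site, in capitals, as its reverse complement on the gene's own strand. They are chr4:86670010-86670309 and chr5:17835847-17836146, both of the minus strand.
Plin2: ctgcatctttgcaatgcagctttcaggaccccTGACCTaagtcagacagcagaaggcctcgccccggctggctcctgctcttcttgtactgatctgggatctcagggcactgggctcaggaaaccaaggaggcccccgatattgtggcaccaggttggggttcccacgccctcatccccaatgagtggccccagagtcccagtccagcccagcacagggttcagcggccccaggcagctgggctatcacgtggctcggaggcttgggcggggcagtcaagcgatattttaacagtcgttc
Cd36: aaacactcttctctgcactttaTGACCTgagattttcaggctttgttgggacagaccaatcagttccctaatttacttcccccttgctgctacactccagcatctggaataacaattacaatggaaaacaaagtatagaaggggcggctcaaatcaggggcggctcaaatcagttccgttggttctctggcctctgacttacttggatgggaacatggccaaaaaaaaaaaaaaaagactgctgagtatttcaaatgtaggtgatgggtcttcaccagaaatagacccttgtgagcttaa
The match begins 218 bases before the start of Plin2 and 228 bases before that of Cd36. In Plin5 the half-site lies on the gene's strand, 170 bases before the start in one promoter and 13 bases after it in the other. A match is a description of these letters, and binding was not measured.

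Other genes of the pathway were taken from lists. Like the members, these lists were chosen with earlier results of these data known, so their counts are a description. Of 19 tested genes of fatty acid uptake and transport 14 were higher at 4 days and 2 were called, both higher. Slc27a4, a fatty acid transport protein, rose from 2624 ± 482 to 5756 ± 1608 normalized counts (SD, n = 4 and 5), a log2 fold change of 1.11 (SE 0.20, limma adjusted p = 0.0229). Got2, a mitochondrial enzyme also described at the cell surface in fatty acid uptake, rose by 0.63 (SE 0.12, limma adjusted p = 0.0269). Among 17 tested genes of droplet turnover 12 were higher and 2 called, namely Acsl4, which activates fatty acids, at 0.82 (SE 0.14, limma adjusted p = 0.0189), and Bscl2, which encodes the droplet assembly protein seipin, at 0.42 (SE 0.09, limma adjusted p = 0.0323). Of 16 genes of triglyceride synthesis 13 were higher, and 1 was called. That gene, Agpat1, adds the second fatty acid and rose from 1443 ± 175 to 2474 ± 183 normalized counts, and the log2 fold change was 0.78 (SE 0.10, limma adjusted p = 0.00614). In all of these called genes the groups did not overlap. The calls of Slc27a4, Got2, Bscl2 and Acsl4 were lost without control B and without control C (limma adjusted p from 0.0502 to 0.110), those of the first 3 also without control D (0.0696 to 0.0842), those of Got2 and Bscl2 without mutant E (0.0516 and 0.0579), and that of Bscl2 without mutants A and C (0.0605 and 0.0577). Without the trend Got2 and Bscl2 were not called (0.0570 and 0.0739), nor was Bscl2 without the filter (0.0507), and in the smaller table Got2, Bscl2, Acsl4 and Agpat1 were not (0.0565, 0.0916, 0.114 and 0.0502).

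Plin3, a perilipin that is no member, ranged from 10060 to 12560.0 normalized counts in controls and from 10972 to 14992 in mutants, a log2 fold change of 0.11 (SE 0.11, limma adjusted p = 0.602). Hilpda, which inhibits the lipase of droplets, stood at 1072, 1189.9, 860.1 and 1019 normalized counts in controls and at 2245, 1953, 1885, 1144 and 1938 in mutants. Mutant D alone lay among the controls. Its log2 fold change of 0.80 (SE 0.19, limma adjusted p = 0.0542) was called without mutant D, at 0.96 (limma adjusted p = 0.00806), with upper-quartile scaling, at 0.77 (0.0468), and in the smaller table, at 0.93 (0.0460). The lipase gene Pnpla2 had overlapping groups, from 5153 to 7460 normalized counts in controls and from 4473 to 10922 in mutants, with a log2 fold change of 0.14 (SE 0.27, limma adjusted p = 0.803).

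Other targets of Pparg were also read. Fabp4 and Fabp5, fatty acid carriers inside the cell, stood for Fabp4 at 327, 449, 207 and 467 normalized counts in controls and 30598, 7617, 4969, 5904 and 6934 in mutants, so that mutant A, not the highest for any called member but Plin2, was far above the rest. The log2 fold changes were 4.64 for Fabp4 (SE 0.49, limma adjusted p = 0.00171) and 1.90 for Fabp5 (SE 0.25, limma adjusted p = 0.00539). Ehhadh, an enzyme of fatty acid oxidation, rose by 1.29 (SE 0.24, limma adjusted p = 0.0220), and was not called without control B, C or D (limma adjusted p = 0.0703, 0.0711 and 0.0681). Of the 6 genes of the Ppar and retinoid X receptors 5 were lower and 0 called by limma, with 3 at an unadjusted p under 0.05. Pparg, transgene included, stood between 9381 and 9999 normalized counts in controls and between 6111 and 9032 in mutants (log2 fold change -0.36, SE 0.12, limma adjusted p = 0.126). Among 14 genes of the hypoxia response, a list that was included because Angptl4 and Plin2 are known to respond to low oxygen, 6 were higher and 8 lower. The called ones were Egln3, at 0.91 (SE 0.13, limma adjusted p = 0.0112), and Pdk1, at -0.48 (SE 0.10, limma adjusted p = 0.0310), and Pdk1 was not called without control B, C or D or mutant A or C (limma adjusted p = 0.0984, 0.102, 0.0681, 0.0594 and 0.0718). Pdk1 was also not called without the trend or in the smaller table (limma adjusted p = 0.0692 and 0.101), and Egln3 and Pdk1 were not called with the Y-linked level as a covariate (0.383 and 0.584) or in the libraries low in it (0.602 and 0.789).

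Over the 9 libraries of sorted cells, the genes whose pattern was most like that of each tested member were found by Pearson's r, which here includes the difference between the groups. For Angptl4 they were Adam9 (r = 0.97), Fkbp11 (0.97) and Hjurp (0.96), and for Plin2 Surf4 (0.97), Egln3 (0.97) and Abhd6 (0.97). Those of Dgat2 were Pcyox1 (0.97), Scap (0.97) and H13 (0.96), and those of Cidec were Galns (0.97), Tlcd2 (0.97) and Por (0.96). Lpl was most like Dgat1 (0.96), Plin5 (0.96) and Crat (0.95), and Plin5 most like Acacb (0.98), Osbpl11 (0.96) and Lpl (0.96). For Cd36 they were Rprd2 (0.98), Aplp2 (0.97) and Map4k4 (0.96), for Plin4 Man2c1 (0.97), Rabac1 (0.97) and Slc27a1 (0.96), and for Plin1 Sugp1 (0.95), Rdh9 (0.88) and Tmem81 (0.87). Between the 3 called members r was 0.94 for Angptl4 and Dgat2, 0.95 for Plin2 and Dgat2 and 0.88 for Angptl4 and Plin2. These values are a description of 9 libraries.

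Among tumors, whole luminal tumors were first set against basal tumors, to see whether the genes described in sorted cells differ between tumors of mutants and of controls. Luminal markers checked the labels: 8 genes summed to between 20662 and 29088 normalized counts in basal tumors and between 215316 and 1035710 in luminal tumors, with Krt18 most abundant. All 8 were higher in luminal tumors with 5 called, and all 6 basal markers were lower with 2 called. Of the 10 members 6 reached 10 normalized counts in 3 or more libraries, with 3 higher and 3 lower in luminal tumors. By limma 0 were called, where 2.2% of 15357 genes were called (338 genes). At an unadjusted limma p under 0.05 there were 2 members and 2820 genes in all, and 0 members were called without the trend in eBayes or with array weights. The members' median log2 fold change was -0.29, against -0.11 over all genes tested.

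None of the 3 uptake genes was called between luminal and basal tumors. Angptl4 stood at 1713, 1463 and 2759 normalized counts in basal tumors A to C and at 587, 244 and 598 in luminal tumors A to C. All luminal tumors lay below all basal tumors, the opposite order to that of mutants and controls at 4 days, and the difference between those contrasts was not tested. The means were 1978 ± 688 and 476 ± 201 normalized counts (SD, n = 3 each), a log2 fold change of -2.11 (SE 0.58, limma adjusted p = 0.100). Lpl stood at 211, 94.0 and 68.5 normalized counts in basal tumors and at 36.1, 39.6 and 40.7 in luminal tumors. Here too the groups did not overlap, though basal tumor A stood well above B and C, and the log2 fold change was -1.49 (SE 1.01, limma adjusted p = 0.473). Cd36 stood at 275, 27.4 and 14.7 normalized counts in basal tumors and at 56.3, 0 and 0 in luminal tumors. Luminal tumor A lay between the basal tumors, and the log2 fold change of -3.69 (SE 1.99, limma adjusted p = 0.364) rests on libraries listed at 0.

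No droplet coat gene was called in this comparison. Plin2 stood at 6171, 2228 and 8771 normalized counts in basal tumors and at 7261, 11682 and 9612 in luminal tumors, with basal tumor C above luminal tumor A (log2 fold change 0.92, SE 0.53, limma adjusted p = 0.399). Plin4 was listed at 0 in basal tumors B and C and in luminal tumor C, and stood at 12.1 in basal tumor A and at 67.4 and 25.9 in luminal tumors A and B (limma adjusted p = 0.531). The remaining coat genes were too low to be tested. Plin1 lay between 1.85 and 58.1 normalized counts in basal and between 3.12 and 8.09 in luminal tumors, and Plin5 at no more than 4.26 in either. Cidea was listed at 0 in 5 of these 6 libraries and at 313 normalized counts in basal tumor C. Cidec was likewise listed at 0 in 5 of the 6, with 58.6 in luminal tumor B.

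Dgat2 stood at 172, 63.5 and 3368 normalized counts in basal tumors A to C and at 3512, 5943 and 10675 in luminal tumors A to C. The groups did not overlap, and basal tumor C, far above A and B, came close to luminal tumor A. The log2 fold change was 4.18 (SE 1.19, limma adjusted p = 0.112) and ranged from 2.99 to 5.84 when any 1 of these 6 libraries was left out. It was called without basal tumor C, at 5.84 (limma adjusted p = 0.0118), not without any other of the 6 (limma adjusted p up to 0.289), and was called with the luminal domains of the same table pooled with luminal tumors, at 4.29 (limma adjusted p = 0.0488). Basal tumor C was also the highest basal tumor in Fabp4, with 48304 normalized counts against 1082 and 75.5, and in Fabp5, with 462032 against 81411 and 7079. Its Pparg, at 102 normalized counts, lay between the 126 and 13.0 of basal tumors A and B. The cause was not tested.

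**Figure D2:**
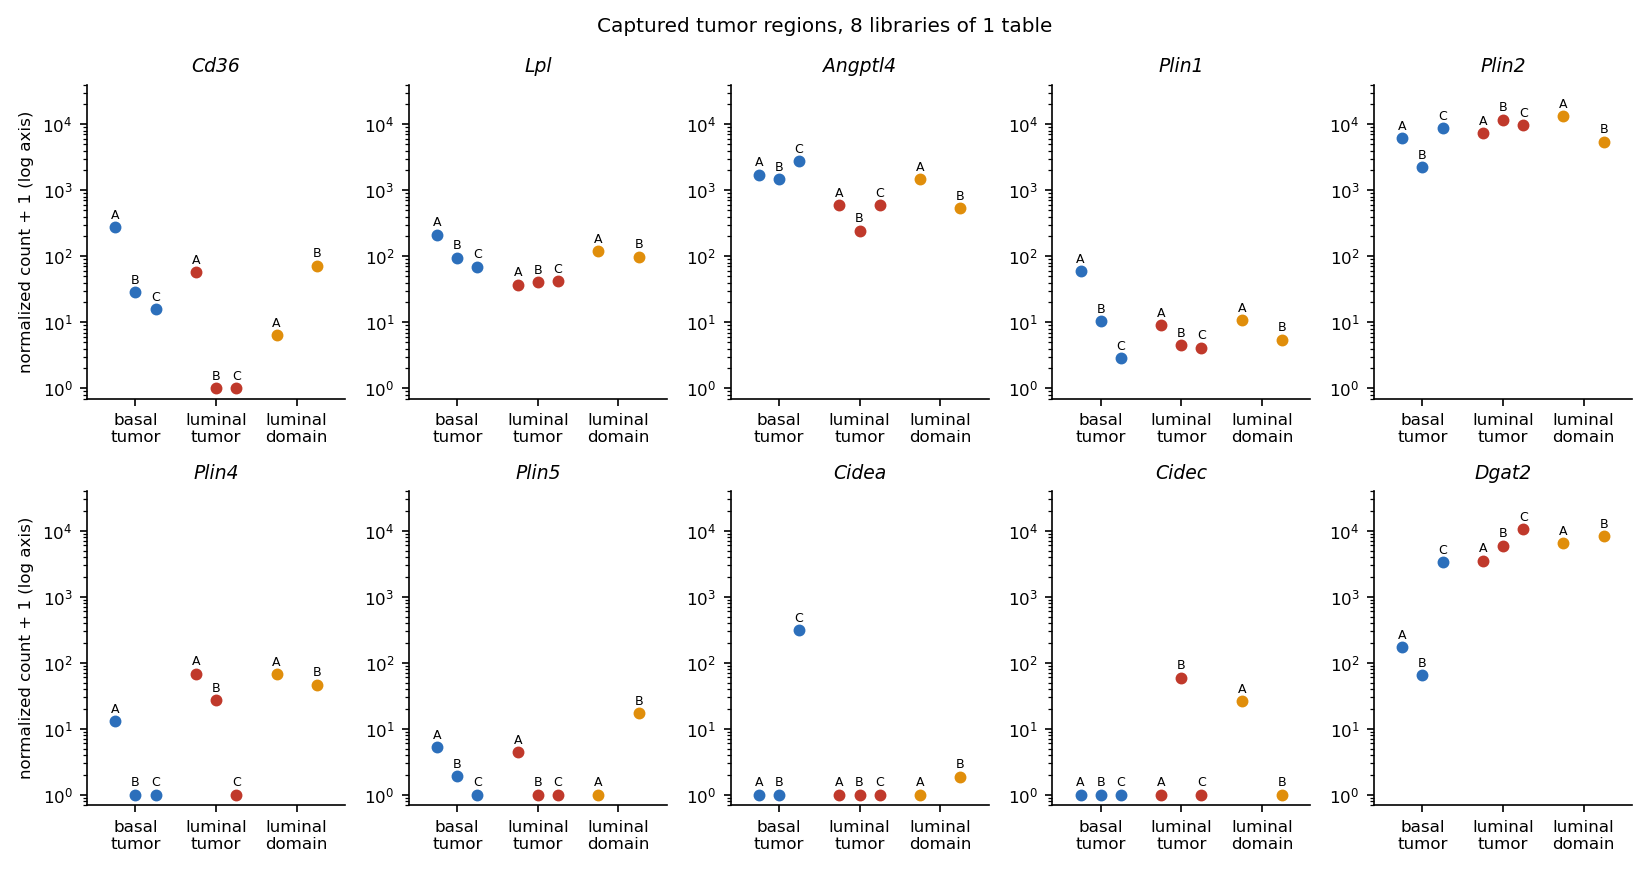
Normalized counts + 1 (vertical axes, logarithmic) of the 10 genes in each library of the tumor table, 3 basal tumors, 3 luminal tumors and 2 luminal domains lettered as in the text. Dgat2 is lowest in basal tumors A and B, Angptl4 and Lpl are lower in luminal than in basal tumors, and points at 1 are libraries listed at 0.

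Pparg itself rose from 80.3 ± 59.4 to 6476 ± 2606 normalized counts (SD, n = 3 each), a log2 fold change of 6.74 (SE 0.80, limma adjusted p = 0.0135), and was not called without luminal tumor A or B (0.0879 and 0.0814). It was the single called gene of 5 tested receptor genes, all 5 of which were higher. Of the other lipid lists 0 genes were called by limma, with 5 of 20 tested at an unadjusted p under 0.05 in uptake and transport, 5 of 16 in droplet turnover, 4 of 15 in triglyceride synthesis and 5 of 20 among other Pparg targets. Pooled with the domains 3 genes of these lists were called, and 3 without luminal tumor C. Uptake and transport had 13 of 20 genes lower, with a median log2 fold change of -0.99, while droplet turnover had 10 of 16 higher, with a median of 0.36. Pnpla2, the first lipase of stored triglyceride, ranged from 286 to 1138 normalized counts in basal tumors and from 1356 to 3274 in luminal tumors without overlap, a log2 fold change of 2.04 (SE 0.56, limma adjusted p = 0.103). Plin3 also had groups without overlap (log2 fold change 0.88, SE 0.34, limma adjusted p = 0.214), while those of Hilpda (1.06, SE 0.48, 0.276), Dgat1 (0.06, SE 0.49, 0.963), Fabp4 (6.30, SE 2.17, 0.172) and Fabp5 (-1.20, SE 1.37, 0.693) overlapped. In the hypoxia list 12 of 14 genes were lower and 0 called by limma, with 3 at an unadjusted p under 0.05.

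Markers of other cells follow for the same libraries. All 8 endothelial markers were lower with 1 called, and they summed to 3846, 3559 and 2786 normalized counts in basal tumors A to C and to 829, 561 and 3611 in luminal tumors A to C. Gpihbp1, which holds lipoprotein lipase on capillaries, was the most abundant by its mean but not in every library, with 122 in basal tumor B and 4.58 in luminal tumor B, and Tek was listed at 0 in all luminal tumors. Macrophage markers were lower in 8 of 9 with 1 called, with sums of 155150.0, 67704 and 33012 in basal tumors and of 22185, 4200.0 and 20995 in luminal tumors, Lyz2 being most abundant. All 6 fibroblast markers were lower with 2 called, with sums of 66575, 44454 and 62708 against 805, 212 and 17129.6 and Col3a1 most abundant. All 6 smooth muscle markers were lower with 3 called, with sums of 51207.5, 6009.9 and 48257 against 240, 150 and 1254, Acta2 being most abundant and Des listed at 0 in all luminal tumors. T cell markers were lower in 4 of 6, with sums between 205 and 8127 in basal and between 195 and 853 in luminal tumors. Fat cell markers summed to between 54.1 and 148 in basal and between 77.6 and 329 in luminal tumors, with Adig most abundant by its mean, largely through 322 in luminal tumor B, and Adipoq, Lep and Cfd listed at 0 in all luminal tumors. The part of these cells in the members' values was not tested.

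**Figure D3:**
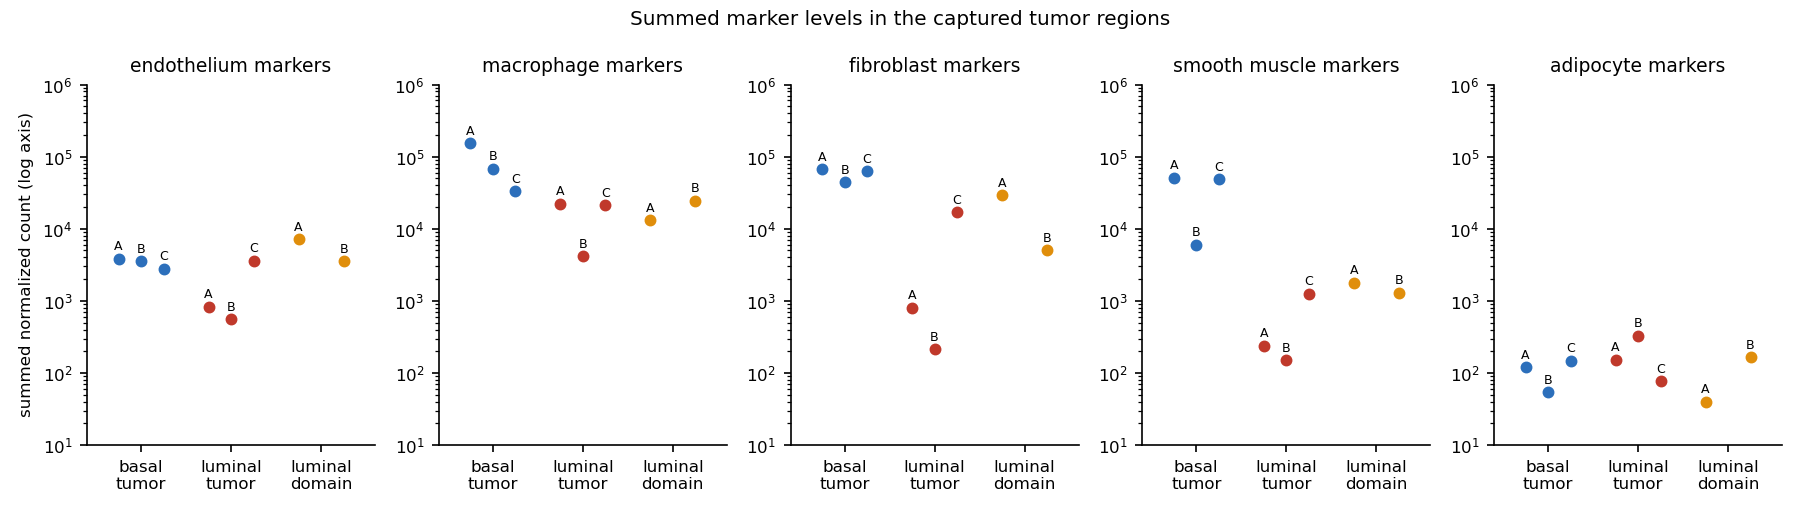
Summed normalized counts of 5 marker lists (vertical axes, logarithmic) in each library of the tumor table, lettered as in the text. Fibroblast, macrophage and smooth muscle sums are higher in every basal tumor than in every luminal tumor, and endothelial sums are lowest in luminal tumors A and B.

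Over the 8 libraries of the tumor table, 2 luminal domains included, the genes most like Dgat2 by Pearson's r were Gsta2 (0.98), Akirin1 (0.98) and Apol7a (0.98), and those most like Angptl4 were Lrpprc (0.96), Bmp2k (0.96) and Col16a1 (0.96). Plin2 was most like Msmo1 (0.98), Mien1 (0.97) and Zfp72 (0.97), Lpl most like Cyp7b1 (0.97), Sltm (0.94) and Elmsan1 (0.93), and Cd36 most like Kdm3a (0.96), C3ar1 (0.91) and Prl8a1 (0.91). For Plin4 they were Zmym6 (0.97), Spaca9 (0.97) and Hectd3 (0.96). As above, r includes differences between the groups and is a description.

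The luminal domains of mixed lesions were set against the same 3 basal tumors in a table of their own, so the basal libraries are shared by both comparisons and their results are not independent. Again 6 members were tested, with 3 higher and 3 lower in luminal domains and 0 called by limma, where 2.53% of 14921 genes were called (377 genes). At an unadjusted limma p under 0.05 there were 2 members and 3072 genes in all, and 0 members were called without the trend or with array weights. The members' median was 0.10, against 0.01 over all genes tested. Dgat2 stood at 175, 63.6 and 3399 normalized counts in basal tumors A to C and at 6754, 8652 and 5391 in luminal domains A to C. No domain fell to the level of basal tumor C. The log2 fold change of 4.33 (SE 1.26, limma adjusted p = 0.114) ranged from 3.14 to 5.99 when any 1 library was left out. Only without basal tumor C was it called (limma adjusted p = 0.0174, against up to 0.295 without another library). Angptl4 stood at 1809.6, 1515 and 2882 normalized counts in basal tumors and at 1583, 581 and 503 in domains. Domain A reached the level of basal tumors and domains B and C did not, a log2 fold change of -1.36 (SE 0.52, limma adjusted p = 0.199).

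Lpl stood at 223, 97.7 and 71.8 normalized counts in basal tumors and at 128, 106 and 32.4 in domains, and Plin2 at 6389, 2261 and 8979 against 14014, 5789 and 7440.5. Both overlapped, with log2 fold changes of -0.60 (SE 1.01, limma adjusted p = 0.778) and 0.74 (SE 0.55, limma adjusted p = 0.493). For Cd36, at 294, 28.7 and 15.5 normalized counts in basal tumors and at 5.88, 78.4 and 84.2 in domains, domain A lay below all basal tumors and domains B and C among them (log2 fold change -0.54, SE 1.57, limma adjusted p = 0.874). Plin4 was listed at 0 in domain C and basal tumors B and C, and reached 70.1 and 49.4 in domains A and B (limma adjusted p = 0.493). Plin5 was not tested, and stood at 103 normalized counts in domain C against no more than 4.47 in basal tumors. Plin1, Cidea and Cidec were not tested either. Plin1 lay between 3.21 and 10.5 in domains, Cidea was listed at 0 in domains A and C and at 0.96 in B, and Cidec stood at 26.9 in domain A alone.

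Among the other lipid lists 3 genes were called, all higher in luminal domains without overlap. Pnpla2 rose from 678 ± 454 to 4306 ± 1061 normalized counts (SD, n = 3 each), a log2 fold change of 2.86 (SE 0.52, limma adjusted p = 0.0374). Lipc, a lipase of circulating lipoproteins, was listed at 0 in all 3 basal tumors and averaged 181 ± 16.2 normalized counts in domains (limma adjusted p = 0.0258). It passed the filter on low values through the domains alone, so this call sets them against a group listed at 0. Aqp3, a channel for water and glycerol, rose from 13467 ± 5624 to 44093 ± 9595 normalized counts, and the log2 fold change was 1.76 (SE 0.35, limma adjusted p = 0.0465). Each of these calls was lost without basal tumor A or any 1 domain (limma adjusted p up to 0.161), those of Pnpla2 and Aqp3 also without basal tumor C (0.0806 and 0.101), and that of Aqp3 without basal tumor B (0.0755). Without the filter Pnpla2, Lipc and Aqp3 were not called (limma adjusted p = 0.0616, 0.0527 and 0.0694). Without the trend Pnpla2 and Aqp3 were not (0.108 and 0.140), nor was Aqp3 with upper-quartile scaling (0.0681). Pparg rose by 6.31 (SE 0.86, limma adjusted p = 0.0239), not called without basal tumor A (0.0544) or domain A, B or C (0.119, 0.121 and 0.0904). Nor was Pparg called without the trend (limma adjusted p = 0.0587). Hilpda (0.91, SE 0.39, 0.238) and Plin3 (1.43, SE 0.37, 0.0880) had groups without overlap and Dgat1 (0.45, SE 0.42, 0.597) had not, the last value of each being the limma adjusted p. Fabp4 ranged from 6468 to 337014 normalized counts in domains, with domain A the highest.

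In the stroma of this comparison 6 of 6 fibroblast markers and 6 of 6 smooth muscle markers were lower in luminal domains, 3 of the latter called, 7 of 9 macrophage markers were lower and 6 of 8 endothelial markers higher. The endothelial markers summed to between 2993 and 4123 normalized counts in basal tumors and to 7858, 3975 and 6252 in domains A to C. Their part in the members' values was not tested.

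Luminal domains were set against luminal tumors, 2 libraries against 3 of the same table, to see whether the luminal part of a mixed lesion differs from a whole luminal tumor. Of 6 members tested 5 were higher in domains, and 0 were called by limma, where 0% of 15357 genes were called. At an unadjusted limma p under 0.05 there were 0 members and 723 genes, and the fit without the trend also called 0. Lpl stood at 119 and 97.7 normalized counts in domains A and B against 36.1, 39.6 and 40.7 in luminal tumors. The domains lay above all luminal tumors (log2 fold change 1.45, SE 1.13, limma adjusted p = 0.984). Angptl4, at 1476 and 535 normalized counts in domains, overlapped luminal tumors (1.01, SE 0.65, limma adjusted p = 0.982), as did Dgat2, at 6522 and 8247 (0.27, SE 1.33, limma adjusted p = 0.995), Plin2, at 13339.9 and 5440.2 (-0.13, SE 0.60, limma adjusted p = 0.995), and Cd36, at 5.42 and 71.5 (2.48, SE 2.22, limma adjusted p = 0.987). All 8 endothelial markers were higher in domains, 4 at an unadjusted p under 0.05 and 0 called by limma, with sums of 7218 and 3577 normalized counts in domains A and B. Also higher were all 6 fibroblast markers, 7 of 9 macrophage markers, 5 of 6 smooth muscle markers, 4 of 6 T cell markers and all 6 basal markers, with 2, 2, 0, 0 and 1 at an unadjusted p under 0.05 and 0 called by limma. The part of these cells in the members' values was not tested.

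Basal-like domains were set against luminal domains of the same kind of lesion, to see which genes differ between the parts of mixed lesions. All 6 basal markers were higher and all 8 luminal markers lower in basal-like domains, Krt14 and Krt8 being the most abundant, with 0 called by limma in either list and 2 in each at an unadjusted p under 0.05. Of the 6 members tested 2 were higher and 4 lower, and 0 were called by limma, where 0% of 14874 genes were called. At an unadjusted limma p under 0.05 there were 1 member and 757 genes in all, and eBayes without its trend called 20 genes, none of them a member. The members' median log2 fold change was -1.04, against 0.01 over all genes tested. Dgat2 was the member under the unadjusted threshold, at 7839.6, 10172 and 6332 normalized counts in luminal domains A to C and at 4542, 2926 and 2573 in basal-like domains A to C. Every basal-like domain lay below every luminal domain. The means were 8115 ± 1934 and 3347 ± 1050.2 normalized counts (SD, n = 3 each), a log2 fold change of -1.29 (SE 0.29, limma adjusted p = 0.651), and it was never outside -1.54 to -1.12 when any 1 library was left out.

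Plin2 stood at 13819, 5782 and 7425 normalized counts in luminal domains and at 6963, 3733 and 4522 in basal-like domains. Basal-like domain A lay above luminal domain B, and the log2 fold change was -0.78 (SE 0.37, limma adjusted p = 0.935). Angptl4 stood at 1593, 593 and 513 against 1797, 1104 and 709.6 normalized counts, with domain A the highest in both groups (log2 fold change 0.51, SE 0.55, limma adjusted p = 0.961). Lpl stood at 120.3, 101 and 30.8 against 526, 27.6 and 28.6 normalized counts. Basal-like domain A was the highest of the 6 libraries and B and C the lowest, with a log2 fold change of 0.06 (SE 1.34, limma adjusted p = 0.998) that fell to -1.33 without basal-like domain A. Cd36 stood at 5.91, 79.8 and 85.6 against 0.91, 18.3 and 13.2 normalized counts, the groups overlapping (log2 fold change -2.18, SE 1.54, limma adjusted p = 0.936). Read letter by letter, Plin2 and Cd36 were lower and Angptl4 higher in each basal-like domain, while Lpl went both ways. Columns of equal letter have consecutive numbers in their names, but no label ties them to a shared lesion, and this order was not tested.

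Plin4 stood at 71.3 and 50.9 normalized counts in luminal domains A and B and at 76.5 in basal-like domain A. It was listed at 0 in luminal domain C and basal-like domains B and C (limma adjusted p = 0.971). Plin5 was not tested, being listed at 0 in all 3 basal-like domains and in luminal domain A, with 17.6 and 104 normalized counts in luminal domains B and C. Plin1, not tested either, stood at 10.6, 4.92 and 3.29 in luminal and at 10.97, 8.20 and 1.88 in basal-like domains, which overlap. Cidea reached 23.3 in basal-like domain B, and Cidec 25.6 in luminal domain A and 10.7 in basal-like domain B. Of the genes named beside the members, Hilpda stood at 5542, 6512 and 5215 normalized counts in luminal domains and at 2649, 2450.3 and 3289 in basal-like domains. Its groups did not overlap (log2 fold change -1.05, SE 0.23, limma adjusted p = 0.651), and neither did those of Pnpla2 (-0.98, SE 0.33, 0.933) and Pparg (-0.79, SE 0.24, 0.864). Plin3 (-0.63), Dgat1 (-0.22), Fabp4 (-0.50) and Fabp5 (-0.07) had log2 fold changes within their spread. Read letter by letter, Plin3 was lower in each basal-like domain, and Plin4, Dgat1, Fabp4 and Fabp5 went both ways. No label makes equal letters a pair, and this order was not tested either. All 6 fibroblast markers and all 4 smooth muscle markers tested were higher in basal-like domains and 0 called by limma, with 1 and 0 at an unadjusted p under 0.05. The fibroblast markers summed to 32313, 5769 and 5225 normalized counts in luminal domains and to 104068, 17153 and 13859 in basal-like domains. Of 6 T cell markers 5 were higher, of 9 macrophage markers 6, and of 8 endothelial markers 2, again with 0 called by limma and with 2, 0 and 0 at an unadjusted p under 0.05. The part of these cells in the members' values was not tested.

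**Figure D4:**
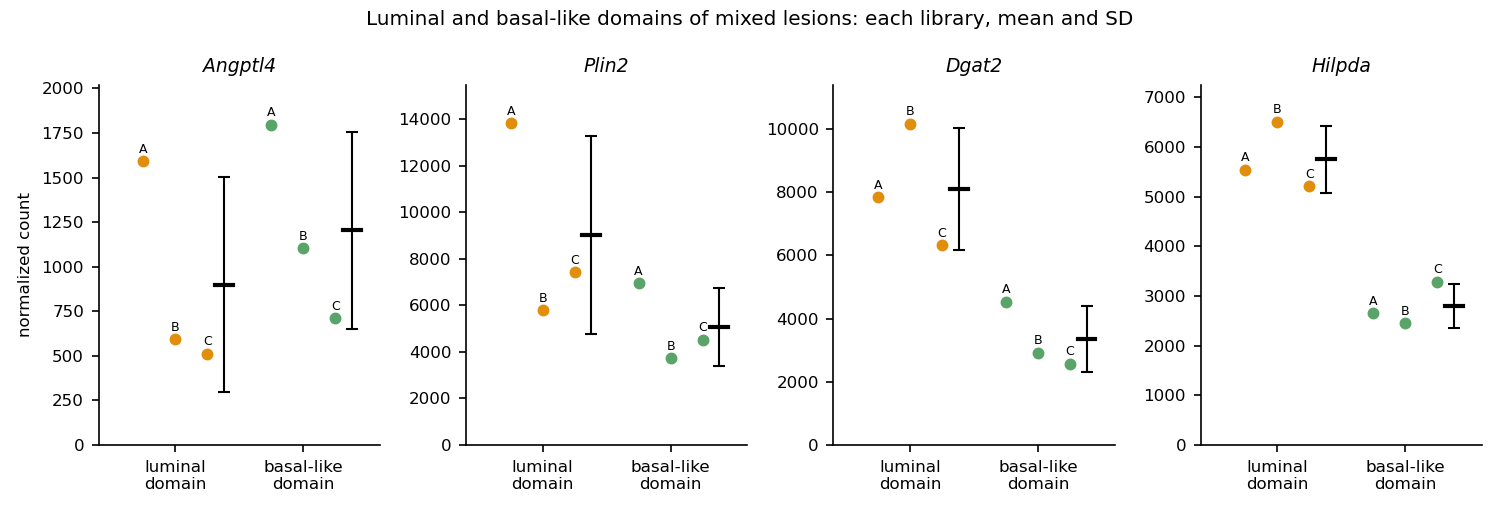
Normalized counts (vertical axes, linear from 0) of Angptl4, Plin2, Dgat2 and Hilpda in 3 luminal and 3 basal-like domains, lettered as in the text, with the mean and SD beside the points. Dgat2 and Hilpda are lower in every basal-like domain than in every luminal domain, and Angptl4 and Plin2 overlap.

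Side by side, Dgat2 had log2 fold changes of 0.76 in mutants at 4 days, 4.18 and 4.33 in luminal tumors and luminal domains against basal tumors, and -1.29 in basal-like against luminal domains. Angptl4 had 1.83, -2.11, -1.36 and 0.51 in the same order, and Plin2 had 0.89, 0.92, 0.74 and -0.78. Of these 12 values 3 were called, all in sorted cells, and differences between the comparisons were not tested.

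**Figure D5:**
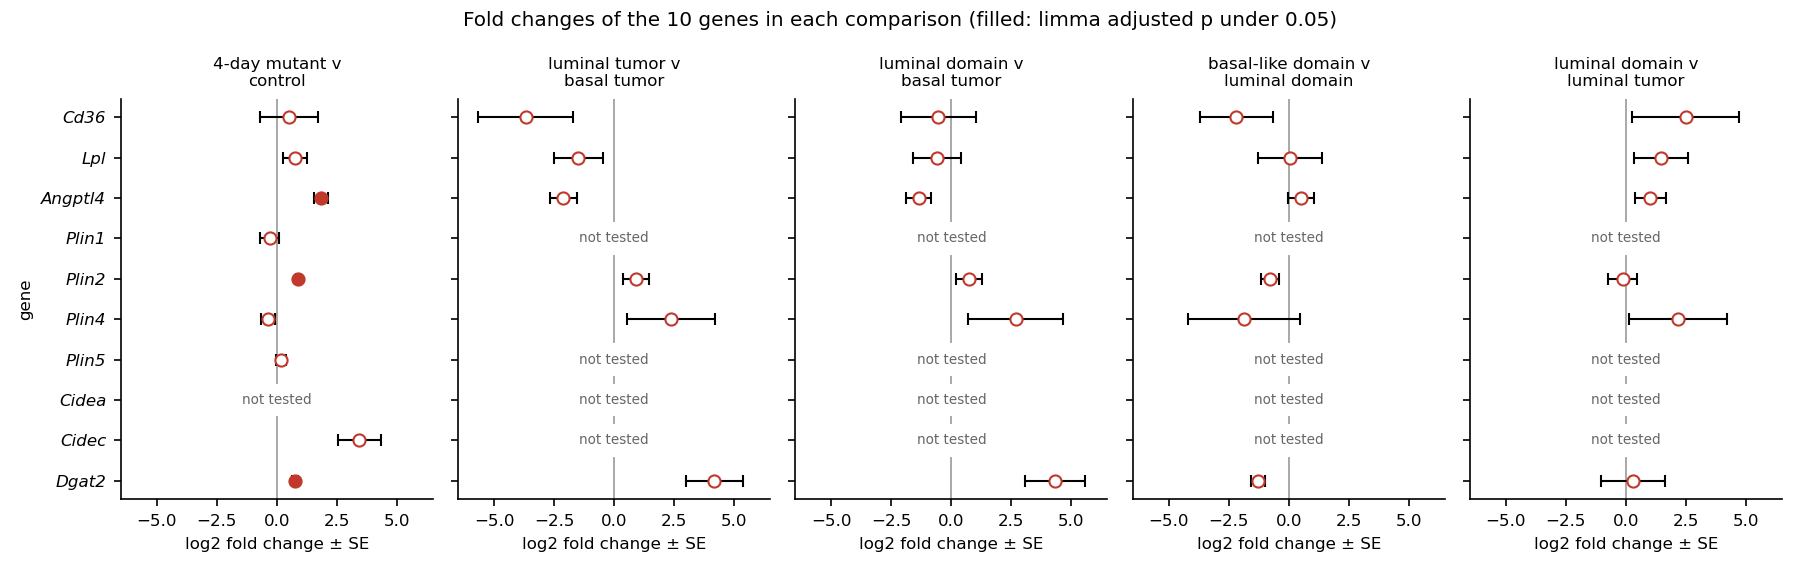
Log2 fold change with SE (horizontal axes) of each of the 10 genes in 5 comparisons, with filled points for a limma adjusted p under 0.05 and genes under the filter written as not tested. Filled points are Angptl4, Plin2 and Dgat2 at 4 days, and the intervals of Dgat2 lie above 0 in 3 panels and below it in that of the basal-like domains.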

How the data were processed

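The deposited signal values are normalized counts that the authors made with kallisto 0.44.0, tximport and DESeq2 1.18, each table on its own, dividing by a factor of its own for each gene and library. Raw reads cannot be computed back from them, and the depth reached by each library is unknown. The labels name GRCm38 and GRCh38 without saying for which step. Columns were assigned to groups by the tables that the labels name for each sample, and letters follow column order. The 8 libraries of wild type urothelium with and without 1 month of BBN were not used here, because nothing says which columns belong to which condition. The authors' lists of fold changes and p-values were not used.

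A gene was tested if it reached 10 normalized counts in a number of libraries equal to the size of the smaller group, and in 3 or more in the table of 8 libraries, also for luminal domains against luminal tumors. Tests used limma 3.58.1 in R 4.3.3 (lmFit, eBayes with a trend, two-sided) on log2(normalized count + 1), with Benjamini-Hochberg adjustment at 0.05 over all genes tested. Luminal tumors, basal tumors and luminal domains of the table of 8 libraries were fitted together. Likeness is Pearson's r of these log2 values over libraries, among genes that average 100 normalized counts or more, predicted genes left out. Named were the 10 members, called genes of each list, though not every one, Fabp4, Fabp5, Pparg, Pnpla2, Hilpda, Dgat1 and Plin3 in any case, the 3 genes most like each tested member, and the most abundant gene of each marker list. Members and lists were chosen with earlier results of these data known. Python 3.11.15, pandas 2.3.3 and matplotlib 3.10.9 summed markers, searched promoters and drew the plots. The fit was checked on simulated data. The alternatives tried were a pseudocount of 5, no filter, eBayes without a trend, array weights, quantile and upper-quartile scaling, each library left out, the smaller table of sorted cells, the Y-linked level (high or low) as a covariate, luminal libraries pooled, and the 6 libraries of a contrast alone. The fit of libraries low in Y-linked genes, and all alternatives for luminal domains against luminal tumors, were chosen after seeing the data.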

Additional observations from a re-analysis of the deposited data

Results flagged for a closer look

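In groups of 4 or 5 libraries, a library was set apart when its gap to the nearest other library took up most of the range of the group (Dixon's test at 95%). Chance flags about 1 in 20 groups, and 4 of 53 groups tested held such a library. Mutant A lay far above the other 4 mutants in Fabp4, at 30598 normalized counts against 7617 in the next. Mutant A was also the single 4-day library with a value above 0 for Cidea, at 3.57 normalized counts. With the other 4 mutants listed at 0, this rule flags any value above 0, so the Cidea flag carries no weight. Control A lay far below the other 3 controls in Plin3, at 10060 normalized counts against 12151 in the next. Control A was also apart in the Y-linked score, the mean of log2(normalized count + 1) over 4 Y-linked genes, which was 5.59 there. The cause of these gaps was not tested.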

How the results depend on the processing

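Over all alternatives together, with each library left out among them, the values of genes named here kept their direction and their side of the threshold in most fits, and exceptions follow. Values of 4-day libraries come first, and the cause of a change was not tested. Of 445 fitted values of named genes at 4 days 369 were unchanged in this sense, as were 172 of 182 for luminal against basal tumors, 150 of 180 for luminal domains against basal tumors, 146 of 156 between the domains and 134 of 143 for luminal domains against luminal tumors.

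At 4 days the genes called over all, 467, became 269 without the trend, 1054 with array weights, 147 in the table of 3 against 3 libraries, 26 with the Y-linked level (high or low) as a covariate and 2 in the libraries low in Y-linked genes, an alternative chosen after seeing the data that keeps 1 control. Both of these set control A against the mutants and so give the same fold changes, with a different spread. Without one library it ranged from 129 to 596, moving most without control B (154), control C (129), control D (169), mutant A (311) and mutant C (228). Quantile scaling gave 270 higher and 287 lower (48.5% higher against 62.1%). The called members, 3, became 1 in the smaller table (Plin2) and 0 in both Y-linked fits, and were 3 to 4 without one library. Other lipid genes called, 9, became 16 with array weights, 5 in the smaller table and 0 in both Y-linked fits, and ranged from 4 to 12 without one library (4 without control B or C, 5 without control D). Cidec, which passed the filter on low values only through mutants, was called with array weights (3.70, limma adjusted p = 0.0251) and without mutant B (0.0119). The log2 fold change reversed for Cd36 (-1.23), Plin1 (0.0440) and Plin4 (0.17) in both Y-linked fits, and for Cd36 without mutant C or E (-0.0802 and -0.0541, the range without one library being -0.0802 to 1.29).

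For luminal against basal tumors the 338 genes called became 52 without the filter, 142 without the trend, 142 with the 6 libraries alone and 513 with luminal libraries pooled. Without one library it was 3 to 813: 14 without basal tumor A, 211 without B, 100 without C, 3 without luminal tumor A or B and 813 without C. Called members became 1 without basal tumor C and with pooling (Dgat2 in each), and were 0 to 1 without one library. Other lipid genes called became 3 with pooling and were 0 to 3 without one library (3 without luminal tumor C). Without the trend 48 were higher and 94 lower (33.8% against 57.4%). The median over all genes, -0.11, moved to 0.02 with quantile and to -0.19 with upper-quartile scaling. Dgat1 reversed to -0.0169 with array weights and -0.0170 with upper-quartile scaling, and to -0.29 without basal tumor C and -0.17 without luminal tumor C (range -0.29 to 0.34). Fabp5 reversed without basal tumor C (range -2.79 to 0.23).

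For luminal domains against basal tumors the 377 genes called became 144 without the filter and 107 without the trend, and 0 to 467 without one library: 22 without basal tumor A, 160 without C, 0 without domain A or B and 3 without domain C. Called members were 0 to 1 (Dgat2 without basal tumor C). Other lipid genes, 3, became 0 without the filter and 1 without the trend, and 0 to 3 without one library (0 without basal tumor A or any domain). With upper-quartile scaling 57.2% of called genes were higher against 67.4% (179 and 134), and the median over all genes moved from 0.01 to -0.14. Cd36 reversed without basal tumor A (0.70) and domain A (0.65) in a range of -1.38 to 0.70, and Lpl without domain C (range -0.97 to 0.00709).

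Between the domains 0 genes became 20 without the trend. Lpl reversed with array weights (-0.22), with quantile scaling (-0.0950) and without luminal domain C (-0.54) or basal-like domain A (range -1.33 to 0.77). Fabp5 reversed with quantile scaling (0.0373) and without luminal domain A (0.73), basal-like domain B (0.43) or C (0.14), in a range from -0.78 to 0.73, and Fabp4 without luminal domain A (1.19) or basal-like domain C (0.87), in a range from -2.07 to 1.19. In luminal domains against luminal tumors, whose alternatives were chosen after seeing the data, all genes called were 0 to 1 (1 without luminal tumor C). Fabp5 reversed with array weights (0.0492) and without luminal tumor C (0.33) or domain B (range -1.76 to 1.16), Plin2 with quantile scaling (0.00503) and without luminal tumor B (0.0282) or domain B (range -0.78 to 0.51), Dgat2 without luminal tumor A (range -0.12 to 0.68), Hilpda without luminal tumor B (range -0.39 to 0.32) and Fabp4 without domain B (range -4.38 to 1.34).

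No paired analysis was possible because the columns carry no replicate number from the labels, so regions of 1 lesion are not known. Column names of luminal and basal-like domains with equal letters are consecutive numbers, and no label says whether this marks a shared lesion. Where a group kept 1 library, it was assumed to vary like the others. The depth reached is unknown, so no limit from counts is given for values of 0. Groups of 2 to 5 libraries limit the precision, and captured regions of 1 mouse would make p-values too small. Sex, by Y-linked genes, and genotype are nearly the same division at 4 days. Bulk values do not separate cell types, and the tables used here hold RNA alone.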
